A study of Mus musculus with 40 samples.

Results

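Co-cultures of 4T1 carcinoma cells and T cells on vitronectin-coated plastic were compared with the same co-cultures on uncoated plastic. The comparison rests on 7 of the 40 libraries of the series, chosen by their labels: 3 on vitronectin (Vtn; experiments 2, 4 and 5) and 4 on uncoated tissue culture polystyrene (PS; experiments 1, 2, 4 and 5). 4T1 is an established mammary tumour line of BALB/c mouse origin, and the T cells came from C57Bl6 spleens. Wells received Vtn at 250 µg/ml or buffer, then 4T1 cells and, a night later, T cells with interleukin 2 at 30 U/mL for 24 h. The libraries of 4T1 alone used below (4 on Vtn and 5 on PS) come from wells of the same experiments that received interleukin 2 without T cells, and a further set of 4 co-cultures grew on fibronectin (Fn). Loose and trypsinised cells were pooled before lysis, so every co-culture library is a mixture of carcinoma and T cell RNA. In such a mixture fewer cells of a type and less RNA per cell cannot be told apart. The experiments are separate biological replicates per the labels, and Vtn and PS wells with the same number form 3 pairs.

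Vitronectin is an adhesive glycoprotein of plasma and matrix. Cells bind its RGD motif through αv integrins, mainly αvβ3 and αvβ5, and it also binds the urokinase receptor. Ligated integrins recruit talin, paxillin and focal adhesion kinase, which link the matrix to actin and to signalling inside the cell. αv integrins can also release active TGF-β from its latent complex, whose relatives, the bone morphogenetic proteins (BMPs), act through SMAD1 and SMAD5 on the Id genes and on the inhibitory SMAD6 and SMAD7.

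The promoters of Selp and Adgrg3, genes with a high Vtn-minus-PS difference, and of a pair of BMP response genes are given first. The results turn on these genes. Each line runs from 250 bases before to 50 bases after the annotated start, 5′ to 3′ on the gene's own strand, from RefSeq on GRCm38.p6. Capitals mark the AP-1 motif TGANTCA and the SMAD-binding GC element GGCGCC, both searched on both strands together with the TEAD motif GGAATG.
Selp (chr1:164115014-164115313, plus strand): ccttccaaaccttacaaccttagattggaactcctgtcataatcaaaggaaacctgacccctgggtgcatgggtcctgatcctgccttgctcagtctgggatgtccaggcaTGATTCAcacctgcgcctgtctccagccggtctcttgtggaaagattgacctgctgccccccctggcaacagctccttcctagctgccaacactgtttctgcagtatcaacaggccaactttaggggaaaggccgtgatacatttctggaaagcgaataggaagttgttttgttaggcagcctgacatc
Adgrg3 (chr8:95017442-95017741, plus strand): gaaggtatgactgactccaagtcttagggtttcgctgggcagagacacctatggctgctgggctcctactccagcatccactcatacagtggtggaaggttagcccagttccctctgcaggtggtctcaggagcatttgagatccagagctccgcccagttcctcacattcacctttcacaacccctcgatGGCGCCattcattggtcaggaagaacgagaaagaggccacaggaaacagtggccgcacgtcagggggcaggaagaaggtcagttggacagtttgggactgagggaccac
Id2 (chr12:25096043-25096342, minus strand): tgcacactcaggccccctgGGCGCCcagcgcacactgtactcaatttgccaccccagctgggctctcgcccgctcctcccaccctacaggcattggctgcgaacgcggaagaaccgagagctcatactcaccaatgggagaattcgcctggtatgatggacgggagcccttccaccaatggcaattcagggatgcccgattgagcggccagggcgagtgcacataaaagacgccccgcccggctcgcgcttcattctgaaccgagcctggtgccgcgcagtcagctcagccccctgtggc
Smad6 (chr9:64022010-64022309, minus strand): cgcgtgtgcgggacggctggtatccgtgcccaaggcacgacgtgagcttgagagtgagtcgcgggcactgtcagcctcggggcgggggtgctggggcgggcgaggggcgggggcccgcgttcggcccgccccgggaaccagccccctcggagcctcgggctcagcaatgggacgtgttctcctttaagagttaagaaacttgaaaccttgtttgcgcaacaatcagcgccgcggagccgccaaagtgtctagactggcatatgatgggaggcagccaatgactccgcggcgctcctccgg
The Selp window held 1 AP-1 match, the Adgrg3 and Id2 windows 1 GC element each, and the Smad6 window none of the 3 motifs. Adgrg1, also among the leading genes, has windows 1 and 2, which are not printed. Window 1 held none of the 3 motifs and window 2 held 2 AP-1 matches. Of 32851 promoter windows of the same length, 7.81% held TGANTCA, 11.9% GGCGCC and 14.7% GGAATG, so such matches are common and none is shown to be a binding site.

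Values are an expression signal per gene, close to the library-size-scaled unit CPM with a further scaling by the submitters, and are called per M. A gene was tested where it reached 1 per M in at least 3 of the 18 co-cultures. Differences are log2 differences of (value + 1) ± SE from a limma fit with the experiment as a block, and a positive one is higher on Vtn. Of 14486 genes tested in co-culture, 0 were higher (0%) and 0 lower (0%) on Vtn at a Benjamini-Hochberg adjusted p under 0.05, and the smallest adjusted p was 0.370. An unadjusted p under 0.05 was reached by 466 genes (3.22%), of which 220 were higher and 246 lower on Vtn. The count test edgeR gave 0 calls with 489 genes under the unadjusted threshold, and DESeq2 gave 5 calls. The median difference over all genes tested was 0.01, and 8201 of them (56.6%) had a positive difference, a share against which the sign counts of the lists below are to be read. Experiment 4 stood apart by its amount of T cell RNA on both substrates, and results without it are given at the end. The named genes below are values that led the comparison without passing its test, unless a call is stated.

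The largest positive difference in co-culture was that of Selp, which encodes P-selectin, an adhesion receptor for leukocytes known from platelets and endothelium. Selp had 7.55, 6.57 and 5.34 per M on Vtn in experiments 2, 4 and 5, against 1.90, 3.21, 2.90 and 1.36 per M on PS in experiments 1, 2, 4 and 5. Each Vtn library was above each PS library, as was the case for 102 of the genes tested (0.704%), while 98 (0.677%) lay wholly below. The ratio within pairs was 2.35, 2.26 and 3.92, with a fitted difference of 1.16 ± 0.21 (limma adjusted p = 0.370). Selp is 1 of 6 genes measured in a list of fibroblast and endothelial markers. The 6 genes summed to 17.5 to 97.1 per M on Vtn and 12.6 to 82.98 per M on PS. Their list scores were higher on Vtn by 0.19, 0.27 and 0.29 in the pairs. Selp itself enters these scores, so they are no separate finding beside it, and a score without Selp was not computed. Of the 4 list members tested 0 passed and 3, Selp, Pecam1 and Thy1, were higher in 3 of 3 pairs. Thy1, which mouse T cells also carry, averaged 19.6 per M on Vtn and 15.6 per M on PS, and Pecam1, an endothelial and leukocyte adhesion molecule, 9.81 per M on Vtn and 7.18 per M on PS; in 4T1 alone Thy1 averaged 0.0170 and 0 per M and Pecam1 0.157 and 0.219 per M on Vtn and PS. The endothelial cadherin Cdh5 averaged 0.109 ± 0.0496 per M on Vtn and 0.121 ± 0.0240 per M on PS (SD, n = 3 and 4). The platelet gene Pf4 averaged 0.110 per M on Vtn and 0.0363 per M on PS. In 4T1 alone, where no T cells had been added, Selp had 6.12, 5.04, 5.83 and 3.69 per M on Vtn (experiments 2 to 5) and 1.39, 3.91, 2.16, 1.82 and 1.20 per M on PS (experiments 1 to 5).

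Adgrg3 and Adgrg1 encode adhesion G protein-coupled receptors, GPR97 and GPR56, and lie next to each other on the plus strand of chromosome 8 (GRCm38, Adgrg1 at 94974751 to 95014217 and Adgrg3 at 95017692 to 95045250). The gap between them measures 3474 bases and holds the upstream part of the Adgrg3 window printed above. Adgrg3 had 52.4, 33.3 and 35.5 per M on Vtn, against 23.8, 27.8, 19.5 and 15.5 per M on PS. No Vtn value overlapped the PS values, and the pair ratios were 1.88, 1.71 and 2.30 (difference 1.01 ± 0.17, limma adjusted p = 0.370). Adgrg1 had 14.3, 10.2 and 8.15 per M on Vtn, against 6.23, 8.07, 5.92 and 4.38 per M on PS. The groups again did not overlap, the lowest Vtn library standing just above the highest PS library (0.81 ± 0.18, limma adjusted p = 1.00). Adgrg5, the same family's next gene upstream, differed by 0.09 in the same fit.

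**Figure D1:**
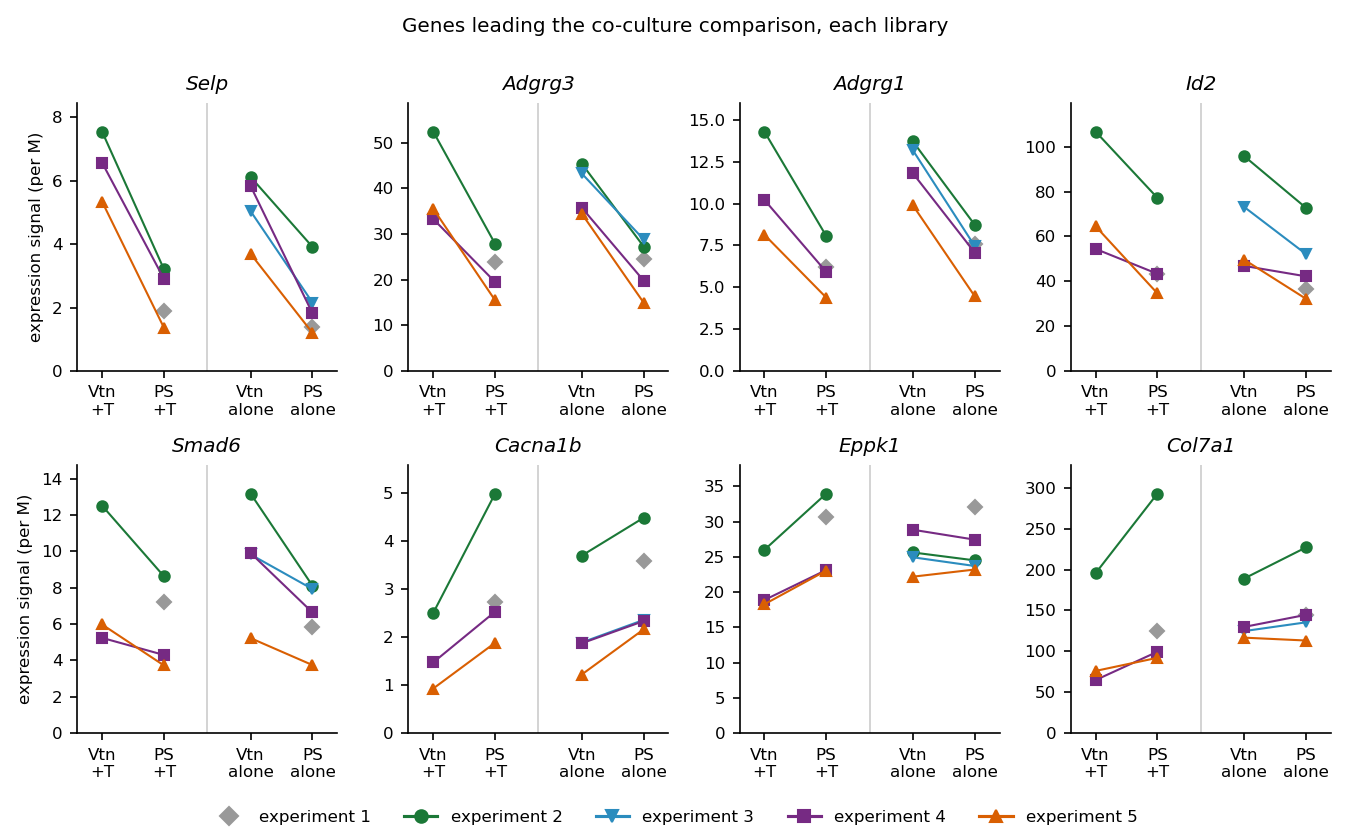
Expression signal (per M, linear axis from 0) of 8 genes in each library of 4T1 with T cells (+T) and alone, on vitronectin (Vtn) and uncoated plastic (PS). Points are libraries, lines join wells of the same experiment, and experiment 1 has no Vtn well; all 3 co-culture lines slope down toward PS for Selp, Adgrg3, Adgrg1, Id2 and Smad6, and up for Cacna1b, Eppk1 and Col7a1.

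BMP and TGF-β response genes followed among the higher ones. Id2, an inhibitor of basic helix-loop-helix transcription factors, had 106.8, 54.4 and 64.6 per M on Vtn, against 43.3, 77.2, 43.3 and 34.6 per M on PS. The groups overlapped, both libraries of experiment 2 being the highest on their substrate, but each pair was higher on Vtn (0.62 ± 0.12, limma adjusted p = 0.476). Smad6, which blocks BMP receptor signalling, had 12.5, 5.24 and 5.98 per M on Vtn, against 7.20, 8.63, 4.30 and 3.72 per M on PS. It was likewise higher on Vtn in 3 of 3 pairs (0.45 ± 0.10). Id1, also a BMP target, had 95.4, 28.4 and 28.5 per M on Vtn and 41.5, 76.7, 26.8 and 24.9 per M on PS. Its difference was 0.28 ± 0.13.

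In the TGF-β and BMP signalling list, 20 of 22 members were tested, 0 passed, and 18 had a positive difference, with a median of 0.09 against 0.01 over all genes. In it, 9 members were higher in 3 of 3 pairs and 1 was lower in all 3, where 18.3% and 10.9% of all genes tested were. The differences were mainly those of response genes: the receptors Tgfbr1, Tgfbr2 and Tgfbr3 lay at 0.08, 0.01 and 0.08, and the signal carriers Smad2, Smad3 and Smad4 at −0.03, 0.14 and 0.03. Among the ligands, Tgfb1, Tgfb2 and Tgfb3 differed by 0.02, −0.15 and 0.10. The latent TGF-β binding proteins Ltbp1 to Ltbp4, which tether the latent complex to matrix, lay between 0.05 and 0.15.

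The last 3 genes named by p among those higher on Vtn were Itga6, Ecm1 and Rras2. Itga6, the α6 subunit of laminin-binding integrins, had 254, 288 and 316 per M on Vtn and 268, 219, 256 and 259 per M on PS. It was higher in each pair (0.25 ± 0.06) although the PS well of experiment 1 exceeded the lowest Vtn library. Ecm1, a secreted matrix protein, had 133, 85.2 and 76.6 per M on Vtn, against 72.4, 88.8, 71.3 and 53.5 per M on PS (0.46 ± 0.11). Rras2, a RAS-family GTPase, differed by 0.19 ± 0.05, with 3 of 3 pairs higher.

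Among genes lower on Vtn, Cacna1b, an N-type calcium channel subunit, had the smallest p of the comparison. It had 2.50, 1.47 and 0.926 per M on Vtn, against 2.74, 4.98, 2.53 and 1.88 per M on PS. Each pair was lower on Vtn, at ratios of 0.501, 0.582 and 0.493, and the groups overlapped through experiment 2 (−0.62 ± 0.11, limma adjusted p = 0.370). Eppk1, an epithelial plakin that binds keratin filaments, had 26.0, 18.9 and 18.3 per M on Vtn and 30.7, 34.0, 23.1 and 23.1 per M on PS (−0.33 ± 0.06, limma adjusted p = 0.370). Col7a1, the collagen of anchoring fibrils, had 195, 64.8 and 76.0 per M on Vtn and 125, 293, 99.5 and 92.1 per M on PS (−0.54 ± 0.11, limma adjusted p = 0.814). The PS library of experiment 2 stood far above the other PS libraries for Col7a1, and the difference without experiment 2 was −0.51.

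The remaining genes named by p among those lower on Vtn were lower in all 3 pairs as well. Il18rap, the accessory chain of the interleukin 18 receptor, differed by −0.47 ± 0.10 and Nuak2, a kinase of the AMPK family, by −0.31 ± 0.08. Ppif, the mitochondrial cyclophilin D, differed by −0.26 ± 0.06, and the long non-coding RNA F730043M19Rik by −0.34 ± 0.07. Stard9, a mitotic kinesin, differed by −0.39 ± 0.10, but it overlaps Cdan1 on the opposite strand. The library kit is not stated to keep strand, so reads in the stretch they share may not be separable. The extent of such overlaps was not examined.

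None of the listed receptors and partners of the coat passed, and their differences were not all of one sign. Of 16 genes listed as vitronectin receptors and partners 15 were in the table, all were tested, 0 passed, and 11 had a positive difference, with a median of 0.05; the Vtn gene itself was not used here. Itgav, the αv subunit, had 201, 184 and 210 per M on Vtn, against 199, 226, 180 and 188 per M on PS, a difference of 0.00 ± 0.08 with a 95% interval of −0.17 to 0.18. Its β3 partner Itgb3 had 12.4, 15.8 and 6.59 per M on Vtn, against 5.70, 9.87, 12.1 and 4.60 per M on PS. Each Itgb3 pair was higher on Vtn, at ratios of 1.26, 1.30 and 1.43, but the spread over co-cultures was wide (0.35 ± 0.26, interval −0.22 to 0.92). Itgb5 and the urokinase receptor Plaur were also higher in each pair, by 0.08 ± 0.09 and 0.11 ± 0.08.

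Members on the other side were few. Thbs1, a matricellular ligand of Cd47 and of integrins, had 1311, 700 and 596 per M on Vtn and 968, 1311, 810 and 822 per M on PS. Its difference was −0.23 ± 0.09, with almost none of it in experiment 2. Itgb6, a TGF-β-activating subunit, was lower in each pair (−0.14 ± 0.11). The fibronectin receptor chain Itga5 differed by 0.02 ± 0.05 and Itgb1 by 0.02 ± 0.09. Itga8 and Itga2b, further RGD-binding α subunits, were at or below 2.83 per M in each of the 7 libraries.

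**Figure D2:**
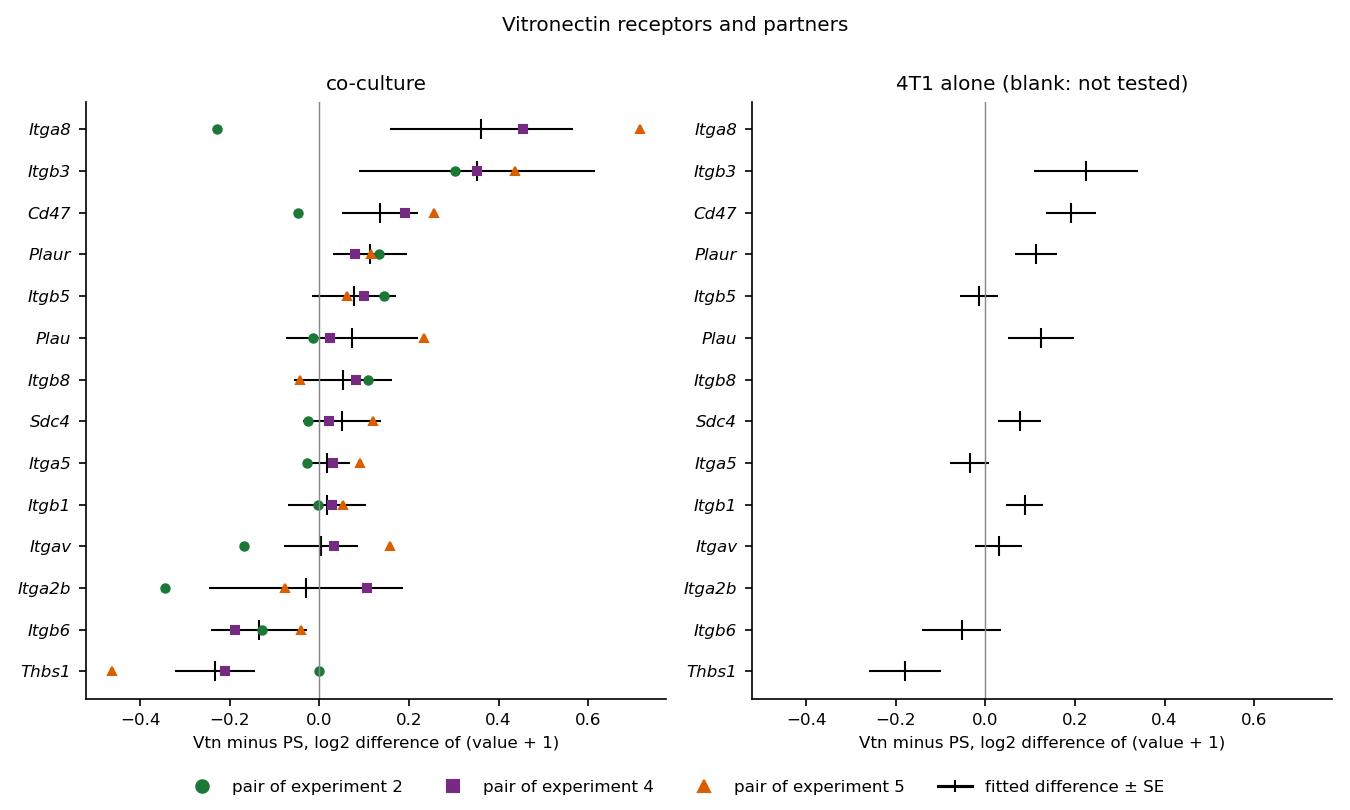
Log2 difference of (value + 1), Vtn minus PS, of the vitronectin receptors and partners reported here, in co-culture (left) and in 4T1 alone (right, blank where not tested). Black ticks and bars are the fitted difference ± SE and coloured points the 3 co-culture pairs; Itgb3 lies right of 0 in both panels, and Thbs1 lies lowest in both.

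Genes downstream of adhesion showed no common direction. Of 32 focal adhesion and actin genes tested, 0 passed, 15 were positive and 17 negative, with a median of −0.01. Lpp, a zyxin-family protein of focal adhesions whose gene overlaps the antisense Lppos, differed by −0.27 ± 0.10 and Acta2, smooth muscle actin, by −0.33 ± 0.14, with values of 2.12, 0.222 and 0.185 per M on Vtn against 0.887, 3.02, 0.697 and 0.295 per M on PS. The paxillin gene Pxn, at 0.08, and the focal adhesion kinase gene Ptk2, at 0.07, were higher in 3 of 3 pairs. Of 23 YAP and SRF target genes, 11 were positive and 12 negative, among them Ctgf at −0.19 ± 0.10 and Ajuba at −0.21 ± 0.08.

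No gene of the matrix lists passed. Of 22 structural matrix genes tested, 16 had a negative difference, 7 were lower in 3 of 3 pairs and 2 were higher in 3 of 3. Col12a1, a fibril-associated collagen, had 43.8, 14.5 and 12.4 per M on Vtn, against 33.1, 48.0, 18.8 and 18.6 per M on PS (−0.34 ± 0.10). Fn1, which encodes fibronectin, differed by −0.11 ± 0.09 and Tnc, tenascin C, by −0.14. Of 23 remodelling genes 15 were positive, near the 56.6% of all genes, and 8 were higher in 3 of 3 pairs, with Ctsd, the lysosomal protease cathepsin D, at 0.23 ± 0.08 and Serpinb2, an inhibitor of urokinase, at 0.32. Adamts1, a secreted metalloprotease, differed by −0.28 ± 0.10.

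No cholesterol synthesis gene passed, and all differences had one sign. All 22 members tested had a positive difference in co-culture, between 0.05 and 0.27 with a median of 0.14, against 0.01 over all genes; 0 passed, 6 were under the unadjusted threshold, as were 3.22% of all genes, and 12 were higher in 3 of 3 pairs, as were 18.3% of all genes. Fdft1, squalene synthase, had 49.3, 43.5 and 59.3 per M on Vtn, against 39.7, 43.0, 34.8 and 49.8 per M on PS (0.24 ± 0.08). It overlaps Ctsb on the opposite strand, so reads in the stretch they share may not be told apart. Lss, which closes the sterol ring, had 38.2, 34.6 and 46.9 per M on Vtn and 30.1, 35.2, 31.9 and 39.3 per M on PS (0.17 ± 0.06). Fdps, which makes farnesyl diphosphate, differed by 0.27 ± 0.11. In the mean over the list, the pairs differed by 0.07, 0.17 and 0.20 (experiments 2, 4 and 5). In 4T1 alone the median of the same 22 genes was 0.05.

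**Figure D3:**
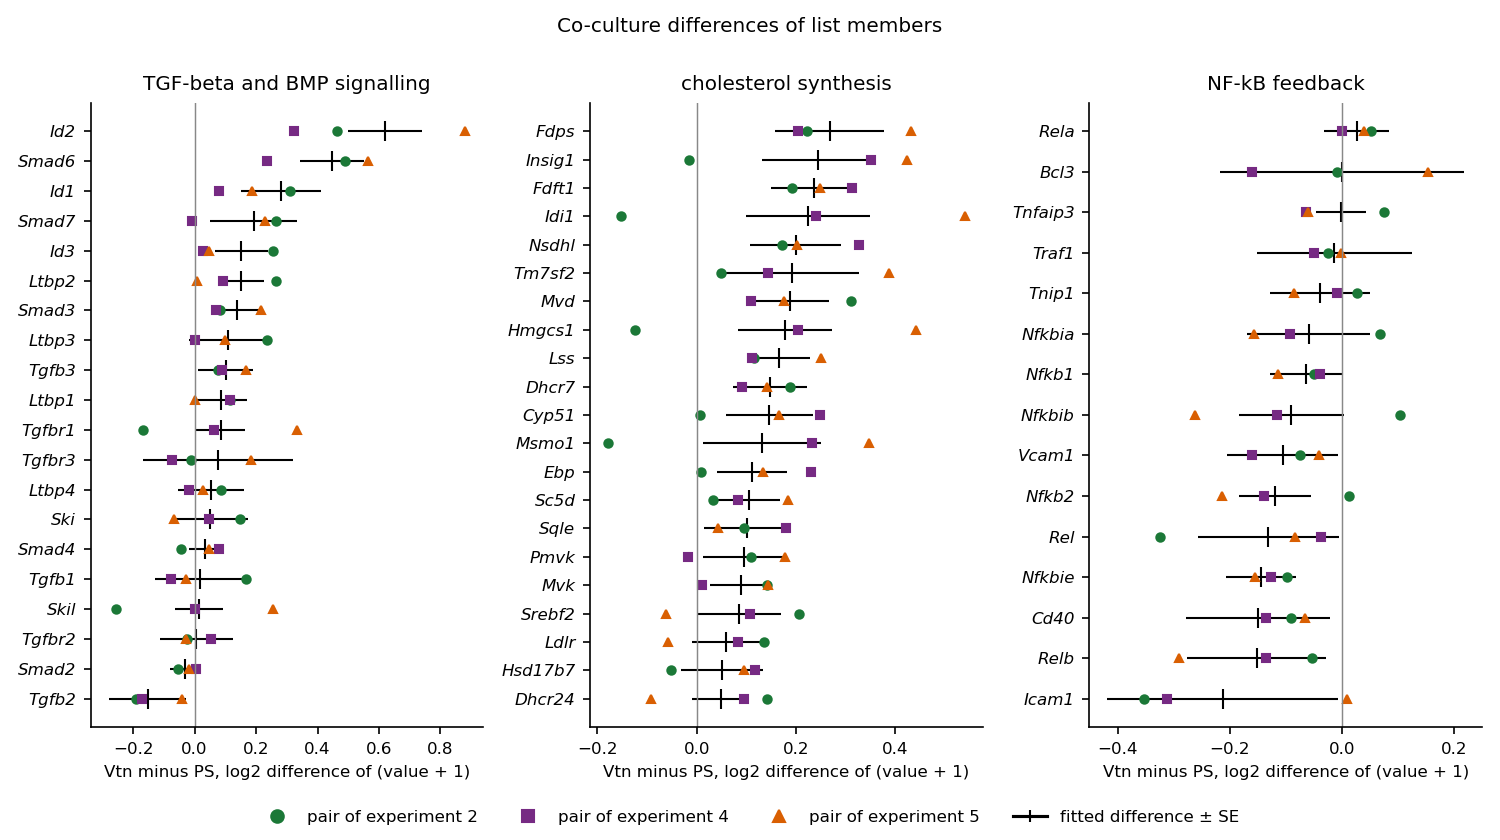
Log2 difference of (value + 1), Vtn minus PS in co-culture, for the tested members reported here of the TGF-β and BMP signalling, cholesterol synthesis and NF-κB feedback lists. Black ticks and bars are the fitted difference ± SE and coloured points the 3 pairs; Id2 and Smad6 lie to the right of the other members of their list, the cholesterol genes shown lie right of 0, and 13 of 15 NF-κB genes lie left of it.

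T cell transcripts set the co-culture experiments apart more than the coat did. The T cell identity list, 25 genes such as Cd3e and Trac, summed to 90.2, 1758 and 40.6 per M on Vtn in experiments 2, 4 and 5, against 309, 68.9, 1535 and 40.2 per M on PS in experiments 1, 2, 4 and 5. Experiment 4 was highest and experiment 5 lowest on both substrates. Of the 25 genes 24 had a positive difference, with a median of 0.21; 0 passed, 0 were under the unadjusted threshold, and 14 were higher in 3 of 3 pairs. Trac, the T cell receptor α constant chain, had 3.78, 49.0 and 2.14 per M on Vtn, against 9.05, 2.93, 43.4 and 1.47 per M on PS (0.30 ± 0.28, interval −0.31 to 0.91). The mean list score differed by 0.25, 0.17 and 0.03 within the pairs.

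In the other T cell lists no gene passed either. Of 24 activation and checkpoint genes tested 22 had a positive difference (median 0.10), among them Icos, a costimulatory receptor, at 0.41 ± 0.23. Of 11 cytotoxic effector genes 7 were positive, and Prf1, perforin, had 0.109, 3.16 and 0.132 per M on Vtn, against 0.431, 0, 1.89 and 0 per M on PS. Libraries at 0 reads allow up to 0.0935 per M (experiment 2) and 0.111 per M (experiment 5), so perforin was measurable mainly in experiments 1 and 4. Ctsw, a lymphocyte cathepsin, went the other way at −0.37 ± 0.19, and it was also detected without T cells, where its difference was −0.43 ± 0.10. It overlaps Fibp on the opposite strand, so reads in the stretch they share may not be separable.

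Interferon response genes did not move alike in the 3 pairs. Of 21 interferon γ response genes tested 17 had a negative difference (median −0.07), 0 passed and 5 were lower in 3 of 3 pairs. The list score differed by −0.20 in experiment 2, −0.14 in experiment 4 and 0.17 in experiment 5. Cxcl10, a chemokine for activated T cells, had 3.04, 2.38 and 2.51 per M on Vtn, against 2.56, 3.99, 3.48 and 3.09 per M on PS (−0.39 ± 0.20). Cxcl9 had 0.190, 0.582 and 0.450 per M on Vtn and 0.608, 0.498, 1.97 and 0.516 per M on PS (−0.45 ± 0.30), the PS library of experiment 4 standing apart. Type I interferon genes were negative in 17 of 20 (median −0.07), with 4 lower in 3 of 3 pairs.

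Antigen presentation genes differed in both directions. Of 19 class I genes 15 had a positive difference, with a median of 0.01 equal to that of all genes at this rounding. H2-K1, a class I heavy chain, had 398, 667 and 336 per M on Vtn, against 426, 378, 647 and 335 per M on PS (0.04 ± 0.19). Of 8 class II genes 4 were tested, 0 passed and 1 was under the unadjusted threshold: Cd74, the invariant chain, at −0.24 ± 0.09 and lower on Vtn in 3 of 3 pairs. H2-Ob, a class II accessory chain, was at 0.28 ± 0.22 and higher in 3 of 3 pairs. Of 15 NF-κB genes and feedback inhibitors 13 were negative (median −0.09) and 7 were lower in 3 of 3 pairs, with Nfkbie, an inhibitor of NF-κB, at −0.14 ± 0.06. Cd274, the PD-1 ligand, had 1.93, 6.07 and 2.59 per M on Vtn, against 2.81, 2.87, 7.49 and 2.43 per M on PS (−0.23 ± 0.40).

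**Figure D4:**
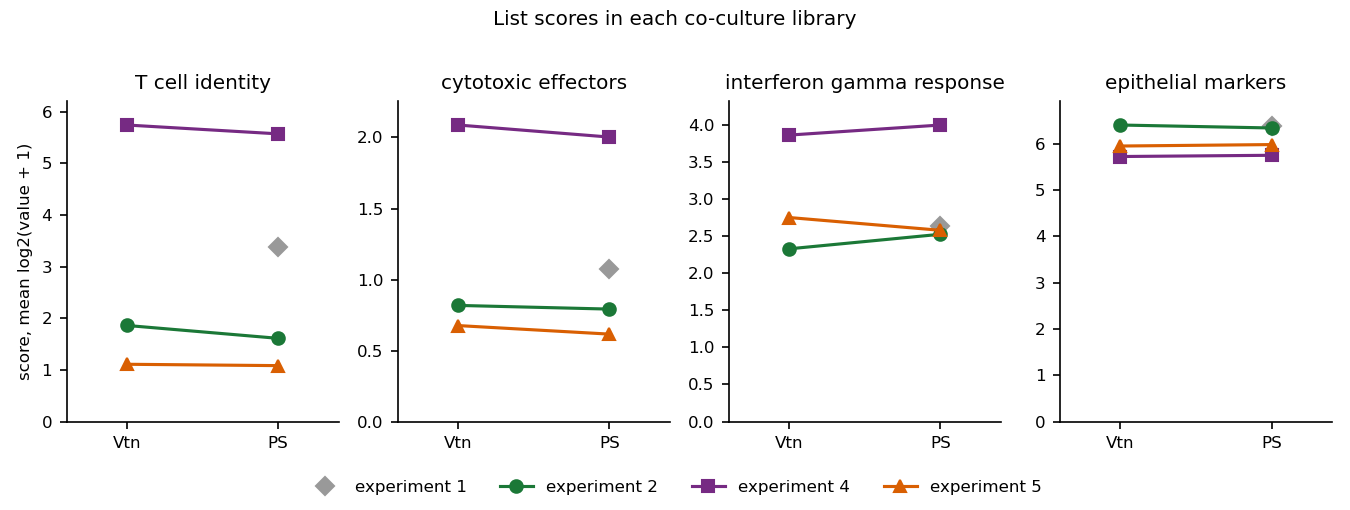
Mean log2(value + 1) over the T cell identity, cytotoxic effector, interferon γ response and epithelial marker lists in each of the 7 co-culture libraries, vitronectin (Vtn) left and uncoated (PS) right. Lines join wells of an experiment; experiment 4 is highest for the first 3 lists on both substrates, and the lines of the interferon list slope in different directions.

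T cell identity genes summed to more in each of the 7 libraries than in any library of 4T1 alone on these substrates, where the sums were 17.8 to 19.0 per M on Vtn and 17.1 to 20.98 per M on PS. The lowest co-culture sums were 40.6 per M on Vtn and 40.2 per M on PS, both in experiment 5. The cytotoxic list summed to 16.3 per M on Vtn and 17.4 per M on PS in experiment 5, no more than in 4T1 alone (17.2 to 28.5 per M on Vtn and 23.02 to 34.6 per M on PS). Of 22 carcinoma epithelial markers 21 were measured and 20 tested. The 21 measured summed to between 2665 and 4159 per M on Vtn and between 2673 and 4168 per M on PS. Their list scores differed by 0.06, −0.03 and −0.03 within the pairs. Markers of other spleen cells were low: the 12 B cell genes summed to 3.68 to 62.3 per M on Vtn and 3.06 to 50.3 per M on PS, most of it Ighm in experiment 4, while Ms4a1 averaged 0.0647 per M on Vtn and 0.0775 per M on PS. Macrophage and dendritic markers summed to 11.7 to 13.3 per M on Vtn and 11.9 to 15.0 per M on PS, and Cd14, the highest of them, averaged 6.72 per M on Vtn and 7.43 per M on PS, with 7.45 and 7.71 per M in 4T1 alone on Vtn and PS. Erythroid and platelet genes summed to 1.49 to 17.1 per M on Vtn and 1.44 to 25.2 per M on PS. The part of these cells in any difference was not tested.

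Without T cells the coat gave 6 genes that were higher (0.0436% of 13776 tested) and 1 that was lower (0.00726%). Selp rose by 1.02 ± 0.15 (limma adjusted p = 0.0117), Adgrg3 by 0.88 ± 0.14 (0.0117), Adgrg1 by 0.80 ± 0.14 (0.0270) and Smad6 by 0.49 ± 0.08 (0.0197). Wnt11, a secreted WNT ligand, rose by 0.53 ± 0.09 (0.0207), Ecm1 by 0.44 ± 0.08 (0.0447), and Plin2, a lipid droplet coat protein, fell by 0.22 on the log2 scale (0.0197). Each was in that direction in 4 of 4 pairs, as were 971 genes tested that were higher in each pair (7.05%) and 1099 that were lower (7.98%). Under an unadjusted p of 0.05 there were 1250 genes (9.07%), 622 higher and 628 lower. The count depended on the experiment: it was 0 without experiment 5, without the block, or without PS replicate 2, PS replicate 5 or Vtn replicate 4, and 26 without PS replicate 4 of 4T1 alone.

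All 7 of these genes had the same direction in 3 of 3 co-culture pairs. Among genes tested in both conditions, 1242 had an unadjusted p under 0.05 in 4T1 alone. Of those, 361 (29.1%) kept their sign in 3 of 3 co-culture pairs. In co-culture the fitted difference was 1.16 for Selp, 1.01 for Adgrg3, 0.81 for Adgrg1, 0.46 for Ecm1, 0.45 for Smad6, 0.30 for Wnt11 and −0.11 for Plin2. Wnt11 and Plin2 had intervals that include 0 there (−0.03 to 0.64 for Wnt11, −0.29 to 0.06 for Plin2). Over the 13645 genes tested in both conditions, 57.4% had the same sign, and of the 118 genes under an unadjusted p of 0.05 in both conditions 102 (86.4%) did. The wells share experiments and coat but no library.

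Whether the coat's difference depended on T cells was tested directly in all 40 libraries. Of 14701 genes 0 passed in either direction (0%), with a smallest limma adjusted p of 0.99976 and 496 genes (3.37%) at an unadjusted p under 0.05, 232 higher and 264 lower; edgeR called 0, with 458 such genes, and DESeq2 0, with 403. For Selp the Vtn difference in co-culture minus that in 4T1 alone was 0.13 with a 95% interval of −0.41 to 0.68. For Adgrg3 it was 0.13 (−0.35 to 0.60), for Id2 0.10 (−0.33 to 0.53) and for Smad6 −0.04 (−0.31 to 0.22). These intervals include 0 and also sizeable differences in either direction, so like behaviour is not shown. Col7a1 had −0.36 (−0.71 to −0.01), an interval not adjusted for the number of genes tested. Eppk1 differed by 0.00 ± 0.10 in 4T1 alone against −0.33 ± 0.06 in co-culture. Both genes were named for their co-culture difference, which is itself part of this contrast, so T cell dependence is not shown for either.

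The smallest p for this dependence was that of Cilp2, which encodes a cartilage intermediate layer protein, at −0.57 with a 95% interval of −0.85 to −0.29. Cilp2 was low throughout: it had 0.951, 0.554 and 0.582 per M on Vtn, against 0.608, 1.15, 0.842 and 1.14 per M on PS in co-culture, and was lower in 3 of 3 pairs (−0.25 ± 0.11). In 4T1 alone it averaged 1.09 per M on Vtn and 0.623 per M on PS and was higher in 4 of 4 pairs (0.32 ± 0.10). Cdc40, a splicing factor, differed by 0.13 on Vtn in co-culture and by −0.10 in 4T1 alone, and Bcl6, a transcriptional repressor, by 0.14 and −0.22. Mpc2, a mitochondrial pyruvate carrier subunit, differed by −0.08 in co-culture and 0.26 in 4T1 alone. Rps2-ps6, Gm6139 and Gm5814 were also among them, with Rps2-ps6 at −0.79 ± 0.34 in co-culture and 0.68 ± 0.20 in 4T1 alone. Rps2-ps6 is a pseudogene of a ribosomal protein gene, so reads could be shared with near-identical copies.

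**Figure D5:**
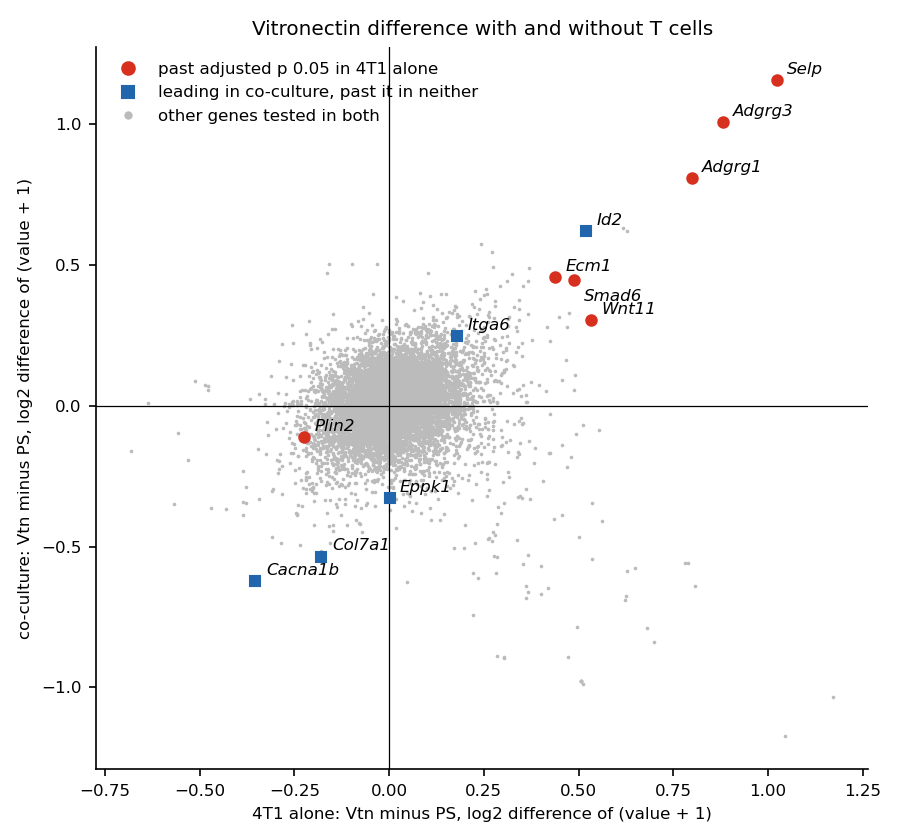
Log2 difference of (value + 1), Vtn minus PS, in 4T1 alone (x axis) and in co-culture (y axis) for the genes tested in both conditions; each point is a gene. Red circles passed an adjusted p of 0.05 in 4T1 alone and blue squares lead the co-culture comparison; Selp, Adgrg3 and Adgrg1 lie farthest to the upper right.

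Fibronectin also carries an RGD motif, and its co-cultures give a comparison that shares the Vtn wells with the one above; the PS wells enter it only through the block and the spread. No gene passed (0% of 14486, smallest limma adjusted p 0.154; 561 genes, 3.87%, at an unadjusted p under 0.05, 325 higher and 236 lower; edgeR 0 with 588 such genes, DESeq2 13 calls). Adgrg3 had 29.3, 21.4, 12.1 and 15.6 per M on Fn in experiments 1, 2, 4 and 5, and the Vtn-minus-Fn difference was 1.18. Selp had 2.34, 3.16, 1.93 and 2.34 per M on Fn, and its difference was 1.09. Both were higher on Vtn than on Fn in 3 of 3 pairs, as were Id2 (0.61), Itga6 (0.30) and Lama3, a laminin-332 chain (0.58). Pmp22, a tetraspan membrane protein, was lower on Vtn than on Fn (−0.54), as were Tgm2, a transglutaminase that overlaps Rprd1b on the opposite strand (−0.58), Wnt9a, a WNT ligand (−0.67), Eppk1 (−0.33) and Ppif (−0.33).

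On the collagens, whose wells enter the fit only through the experiment block and the shared spread, Selp had 5.29, 1.61 and 1.67 per M in the collagen I co-cultures of experiments 2, 4 and 5 and 3.44, 1.42, 1.21 and 0.735 per M in the collagen IV co-cultures of experiments 2 to 5. Within experiments 2, 4 and 5 the Vtn library had the highest Selp value of the 5 substrates. Adgrg3 had 33.0, 13.2 and 17.7 per M on collagen I and 21.03, 12.2, 7.27 and 8.50 per M on collagen IV, again below the Vtn library of the same experiment. These are values side by side; only the Vtn-against-PS and Vtn-against-Fn differences were tested.

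The depth of the 7 libraries was 26.4 to 40.01 M (mega) assigned reads, so 3 reads correspond to 0.0760 to 0.111 per M. A library tag in the labels (none, R2 or R3, meaning not stated) was shared within a pair only in experiment 2, where Selp, Adgrg3 and Adgrg1 differed by 1.02, 0.89 and 0.76 between the Vtn and PS wells; its part in the other pairs was not tested. With the T cell identity score as a covariate the differences of Selp and Adgrg3 were 1.17 and 1.03, and without experiment 4, which held most of the T cell RNA, they were 1.22 and 1.10 (smallest adjusted p of the comparison 0.0653 and 0.0538, 0 calls each). In the fit of the 7 libraries alone, Selp, Adgrg3 and Adgrg1 passed as higher (limma adjusted p = 0.0210, 0.0123 and 0.0210), and in the fits of all 40 libraries Selp and Adgrg3 did.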

How the data were processed

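RNA of 40 libraries (5 substrates, with or without T cells) had been read as single ends of 75 bases. Per the submitters' processing notes, STAR 2.6, featureCounts and edgeR 3.31.7 were used with the mouse build mm10; options and annotation are not given in the sources used here. The deposited signal is, from its values, a read count over a library size scaled by the authors: whole reads were recovered for 100% of values within 0.01 of a whole number, and the count tests edgeR 4.0.16 and DESeq2 1.42.0 ran on these as alternatives. Of 21349 table lines 21347 genes were kept; Ldha held a cell with no number, Cd3d had a duplicate line and 19 symbols had become dates. Values were fitted as log2(value + 1), which understates differences of low genes, with limma 3.58.1 in R 4.3.3 (intensity trend): 18 co-cultures for Vtn against PS and against Fn, 22 libraries of 4T1 alone, and 40 libraries for T cell dependence. Substrate means had the experiment number as a block, and p was adjusted by Benjamini-Hochberg over all genes tested, with a threshold of 0.05. Because all substrates enter the block, a fitted difference is not the plain mean of the pairs. The number marks separate biological replicates per the labels, and residuals of same-numbered Vtn and PS co-cultures correlated at 0.792, 0.964 and 0.901. None of the 7 libraries was a copy of another of its group by a chi-square test of their reads. The scripts were tested on simulated data. Genes were named by rule: up to 8 per direction by p among those alike in 3 of 3 pairs, the 15 receptor genes, the 2 with the smallest p of each other list (or those passing) and the 5 smallest p per direction of the other tests; some items are not reported here; other genes named inside a list were chosen after their values were seen. The libraries, gene lists and rules were chosen with earlier results of these data known. Reads carry no molecular identifiers, so limits from 3 reads cover counting error only. Genes named from the 4T1-alone test are those that passed it.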

Additional observations from a re-analysis of the deposited data

Results flagged for a closer look

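Among 163 groups of values examined for 1 library far from the rest, 17 held one. For independent, normally spread values about 1 in 20, or 8.15, would do so by chance. The groups share libraries and hold related genes, so 8.15 is no strict chance level for them. All 17 lay in wells on uncoated plastic, which made up most of the groups examined. Uncoated co-cultures were examined for every named gene and list score. Wells of 4T1 alone were examined only for genes leading the co-culture comparison or passing in 4T1 alone. The Vtn co-cultures, with 3 libraries, were too few to examine. In the uncoated co-culture of experiment 2, Col7a1 stood at 293.04 per M (next 124.7), Plau at 190.7 per M (next 145.7) and Wnt9a at 11.3 per M (next 6.42), and the list scores of YAP and SRF targets (7.08) and matrix remodelling (4.67) were highest. The uncoated wells of 4T1 alone also had their highest Col7a1 (227.2 per M) and Plin2 (177.4 per M) in experiment 2. The Col7a1 difference in co-culture without experiment 2 was −0.51.

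In the uncoated co-culture of experiment 4, Cxcl9 stood at 1.97 per M, H2-Ob at 17.2 per M, Icos at 10.2 per M, Igkc at 2.82 per M, Hba-a1 at 5.69 per M and Hba-a2 at 5.57 per M, all above the other uncoated co-cultures. The scores of checkpoint ligands (3.77), interferon γ response (3.99) and erythroid and platelet markers (1.72) were highest there, and that of the cell cycle list (7.29) was lowest. The T cell identity genes summed to 1535 per M in that library and to 1758 per M in the Vtn library of the same experiment.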

How the results depend on the processing

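The co-culture comparison gave 0 calls as fitted and without the replicate block; it gave 2 (Selp and Adgrg3) in each fit of all 40 libraries, 5 with DESeq2 (Adgrg3 and Id2 higher; Cacna1b, Col7a1 and Eppk1 lower), 4 in the 7 libraries alone (Selp, Adgrg3 and Adgrg1 higher, the 7SK RNA Rn7sk lower), and 0 to 2 without 1 library (2, Adgrg3 and Id2, without PS replicate 4). Experiments 2, 4 and 5 left out in turn gave 0 each. In 4T1 alone the 7 calls became 0 without the replicate block, 2 with all 40 libraries and a shared block, 40 when scaled to the epithelial markers, 18 with edgeR, 32 with DESeq2, 4 without experiment 2, 4 without experiment 4, 0 without experiment 5 and 0 to 26 without 1 library (0 without PS replicate 2, PS replicate 5 or Vtn replicate 4, 2 to 4 without PS replicate 3, Vtn replicate 3 or Vtn replicate 5, 26 without PS replicate 4); all 7 were kept by edgeR and DESeq2. T cell dependence stayed at 0 under each alternative run, 0 to 0 without 1 library. Vtn minus Fn gave 3 with all 40 libraries and a shared block, 1 when scaled to the epithelial markers (which moves the median of all genes to 0.12), 13 with DESeq2, 3 with the T cell score as a covariate, and 0 to 0 without 1 library. The same scaling moved the co-culture median to 0.07. Of 2191 alternative values for the 97 named genes 2174 kept their direction and side of the threshold, 14 gained a call, and 3 reversed: Pmp22 at 0.00821 and Rsad2 at 0.0241 without the replicate block, and Igkc, which ranged from −0.0374 to 0.728 without 1 library. A value smaller than its SE counted as having no direction. Mean list differences over the pairs moved for structural matrix (−0.0727) and cytotoxic effectors (0.125) with a pseudocount of 0.25, and for cytotoxic effectors (0.0187), fibroblast and endothelial markers (0.158) and Selp with Adgrg3 (0.768) with 4. The cause of these shifts was not tested. With 3 pairs the median SE was 0.0913 on the log2 scale, and 3 reads correspond to 0.0760 to 0.111 per M.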

Other observations

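Direct target genes of BMP signalling were looked at as a wider list after values of its members had been seen, so it has no test. Of 14 such genes 10 were tested in co-culture and all 10 had a positive difference on Vtn (median 0.35, against 0.01 over all genes); 0 passed, 7 were under an unadjusted p of 0.05 in that direction (220 of 14486 genes were) and 8 were higher in 3 of 3 pairs. Atoh8, a transcription factor, had 1.63, 0.998 and 1.11 per M on Vtn, against 0.405, 0.530, 0.523 and 0.479 per M on PS, with no overlap (0.63 ± 0.16). Id4 had 1.39, 1.39 and 1.96 per M on Vtn and 0.634, 0.716, 1.28 and 0.553 per M on PS (0.49 ± 0.20). Smad9, a receptor-regulated SMAD, had 2.04, 1.47 and 1.35 per M on Vtn and 0.836, 1.34, 1.02 and 0.774 per M on PS (0.42 ± 0.14); neither gene overlapped between the groups. In 4T1 alone 9 of 9 tested were positive, with a median of 0.37. Ligands, receptors and antagonists of the pathway lay around 0: of 12 tested 6 were positive, with a median of 0.02. Bmp7 averaged 35.2 per M on Vtn and 33.4 per M on PS.

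Fatty acid and other sterol-regulated genes, also added after seeing values, were positive in 14 of 16 tested (median 0.09), with Scd1, a desaturase, at 0.24 ± 0.08 and Stard4, a sterol carrier, at 0.19 ± 0.06, while Fasn, fatty acid synthase, was at −0.03 ± 0.06 and Acaca at −0.08 ± 0.06. In 4T1 alone their median was 0.02.

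A set of 34 genes was lower on Vtn in co-culture by at least 0.5 and higher in 4T1 alone by at least 0.25 on the log2 scale, while 0 genes were the reverse. These are not 34 separate measurements. Gm20765, Gm8764, Gm21312, Gm21304 and Gm21293 had identical differences, −0.979 in co-culture and 0.505 in 4T1 alone. The set holds 17 genes annotated as protein coding, some of them multicopy and some known from the mouse 2-cell embryo, such as Zscan4f. A further 8 are pseudogenes, and reads of such copies may be shared. The rest are annotated as ribosomal, micro or other non-coding RNAs, such as n-R5-8s1 and Rn7sk. Whether library composition has a part in their differences was not tested. Zscan4f had 0, 0 and 0.635 per M on Vtn in co-culture, against 0, 2.99, 0.406 and 0.111 per M on PS. In 4T1 alone it had 1.99, 0, 0.267 and 0.118 per M on Vtn and 0.849, 0, 0.862, 0 and 0 per M on PS. The PS well with T cells and the Vtn well without them were high in experiment 2, and the median of the 34 genes differed by −1.26 in that co-culture pair and by 1.20 in that pair of 4T1 alone. The medians were −0.48 and 0.25 in experiment 4 and −0.37 and 0.48 in experiment 5, and −0.11 in experiment 3, which has 4T1 alone; the genes were chosen on these same differences. None passed the test of T cell dependence.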
